A study of Mus musculus with 20 samples.

Results

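Every dissection of a brain region can carry a variable amount of the covering membranes, and 16 of 20 mouse hippocampal RNA libraries were compared here by the level of 2 genes of those membranes. Libraries were chosen by the measured levels of these genes. The genes were Col1a2, which encodes a chain of type I collagen, and Slc6a13, which encodes a GABA and taurine transporter. The score of a library was the mean over both genes of log2(CPM + 1), where CPM is counts per 1000000 counts of the library. Within each of the 4 treatment groups of 5 mice, the 2 libraries with the highest score were called rich and the 2 with the lowest poor. That gave 8 rich and 8 poor libraries, and the 4 libraries ranked in the middle of their groups were kept out of the comparison.

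The libraries came from bulk sequencing of total RNA of a single frozen hippocampus from each of 20 male wild-type mice aged 10 to 12 weeks, in a series on immune checkpoint inhibition and melanoma. The control group received isotype-matched antibody intraperitoneally, and the ICI group received immune checkpoint inhibitors, namely anti-CTLA-4 at 1 mg per dose 3 times a week and anti-PD-1 at 200 µg per dose 2 times a week. The melanoma group carried tumours of the syngeneic mouse line D4M-3A.UV2 and received isotype antibody. The melanoma plus ICI group carried the same tumours and received both inhibitors, for 3 weeks per the labels. Tumours were started by intradermal injection of 500000 cells on each side and given 1 week to engraft, and all brains were collected 72 hours after the last injection. Each library is labelled as a separate brain, and no label gives a dissection date or an amount of attached membrane.

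The meninges are the membranes around the brain: the dura on the outside, and the arachnoid and pia, together the leptomeninges, on the inside. Their fibroblasts make fibrillar collagens and small proteoglycans, carry transporters at the boundary between blood and cerebrospinal fluid, and synthesise retinoic acid and prostaglandin D. The pia lies directly on the hippocampal surface and follows the larger vessels inward, where macrophages and smooth muscle cells lie beside its fibroblasts.

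Total counts lay between 21990624 and 25735149 per library, and between 24674 and 26194 genes had at least 1 count. Total counts overlapped between the classes, with medians of 24008860 in rich and 23521728 in poor libraries. Fewer genes were detected in most poor libraries, 24674 to 25895 with a median of 25496, than in rich ones, 25704 to 26194 with a median of 25814, and the part of this in the results was not tested. Of the 20 libraries, 2 stood apart on the first principal component of the whole profile, control replicate 4 at -79.6 and melanoma plus ICI replicate 1 at -67.4, against -28.2 to 42.8 in the other 18. Genes of the mitochondrial genome took 5.10% and 4.28% of the counts in these 2 libraries and 3.08% to 3.79% in the others. Both were poor libraries, so the main counts and the medians of the gene lists are also given without them.

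The score ran from 3.94 to 4.98 in the rich libraries, with a median of 4.36, and from 2.26 to 3.90 in the poor ones, with a median of 3.37. In control, replicates 1 and 5 were rich at 4.98 and 4.01, replicate 3 was in the middle at 3.53, and replicates 2 and 4 were poor at 3.42 and 3.32. The ICI group had the widest step between classes, from 4.11 and 3.94 in replicates 5 and 4, through 3.50 in replicate 1, to 2.45 and 2.26 in replicates 2 and 3. In melanoma, replicates 5 and 3 stood at 4.61 and 3.99, replicate 2 at 3.71, and replicates 4 and 1 at 3.63 and 2.89. The melanoma plus ICI group had the highest median, although control replicate 1 was the highest single library. Its scores were 4.91 and 4.80 in replicates 4 and 2 of melanoma plus ICI, 4.09 in replicate 3, and 3.90 and 3.88 in replicates 5 and 1. A class is thus relative to its own group: the poor libraries of melanoma plus ICI exceeded the middle libraries of the 3 other groups.

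**Figure D1:**
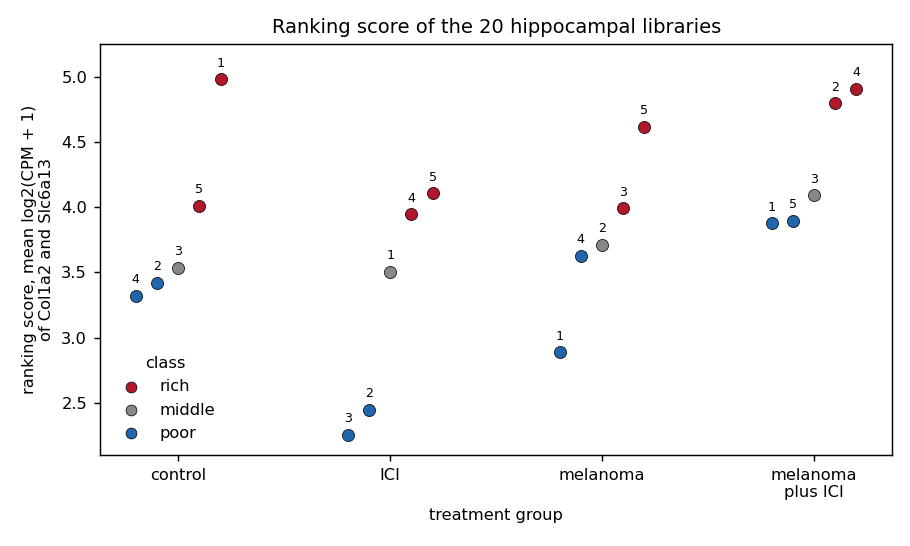
Ranking score of each of the 20 libraries, the mean log2(CPM + 1) of Col1a2 and Slc6a13 (vertical axis), by treatment group (horizontal axis), with the replicate number beside each point and the class as its colour. The step from the middle to the nearest poor library is 1.06 for the ICI group and 0.12, 0.09 and 0.19 for control, melanoma and melanoma plus ICI.

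The 2 ranking genes fixed the classes, so their levels are a description and were not tested. Col1a2 lay between 19.6 and 43.2 CPM in the rich libraries, with a median of 27.1, and between 6.50 and 19.6 in the poor ones, with a median of 13.9. Slc6a13 lay between 9.14 and 23.9 CPM, median 13.4, in the rich libraries and between 2.05 and 11.8, median 5.87, in the poor ones. The steps from the last rich library to the middle one were 0.47, 0.44, 0.28 and 0.71 for control, ICI, melanoma and melanoma plus ICI.

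Rich libraries held more RNA of several matrix and transporter genes of fibroblasts, among them Col3a1, Fmod, Slc13a3 and Slc6a12, and of the enzyme genes Aldh1a2 and Ptgds. With group as a covariate, 31 of the 19331 other genes rose in rich libraries and 2 fell at an adjusted p under 0.05, by edgeR's quasi-likelihood test with Benjamini-Hochberg adjustment over all 19331. These are 0.16% and 0.0103% of the genes tested. The 31 rises ran from 0.43 to 1.68 on the log2 scale, with a median of 1.00. In bulk tissue, fewer cells of a type and less RNA per cell cannot be told apart, so each value is an amount of RNA per library. The classes were cut from measured values of the same libraries, and the p-values concern a gene's association with that cut, not an effect of a treatment.

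The number of genes past the threshold rested on few libraries. Without the 2 libraries that stood apart, 0 genes passed in either direction, the smallest adjusted p by edgeR was 0.0812, and all 31 genes were still higher in rich libraries, with a median log2 difference of 0.93. The count of rises was also 0 without ICI replicate 3 or without melanoma replicate 5, where the smallest adjusted p was 0.0596 and 0.0567. It was 11 without control replicate 1, 13 without melanoma plus ICI replicate 4, 19 without melanoma plus ICI replicate 1, 20 without ICI replicate 5 and 54 without ICI replicate 4. The 2 falls became 11 without ICI replicate 2 and 27 without ICI replicate 4, 3 without control replicate 2, and 0 or 1 without each of the others. Leaving out a whole treatment group left 0 genes past the threshold each time.

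The split of 31 rises and 2 falls was not general. At an unadjusted p under 0.05 by edgeR, 1504 genes were higher (7.78%) and 1444 lower (7.47%). Without single libraries, these counts ran from 1197 to 2093 higher and from 1000 to 2392 lower, both highest without control replicate 2. DESeq2 called 261 of 17456 genes higher (1.5%), all 31 risers among them, and 206 lower (1.18%). Both rich libraries exceeded both poor ones in all 4 groups for 131 genes (0.678%), 30 of the 31 risers among them, and both lay below in all groups for 89 genes (0.46%). The 31 were called on these same libraries, so their sign in each group or with libraries left out is a description and no further support.

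**Figure D2:**
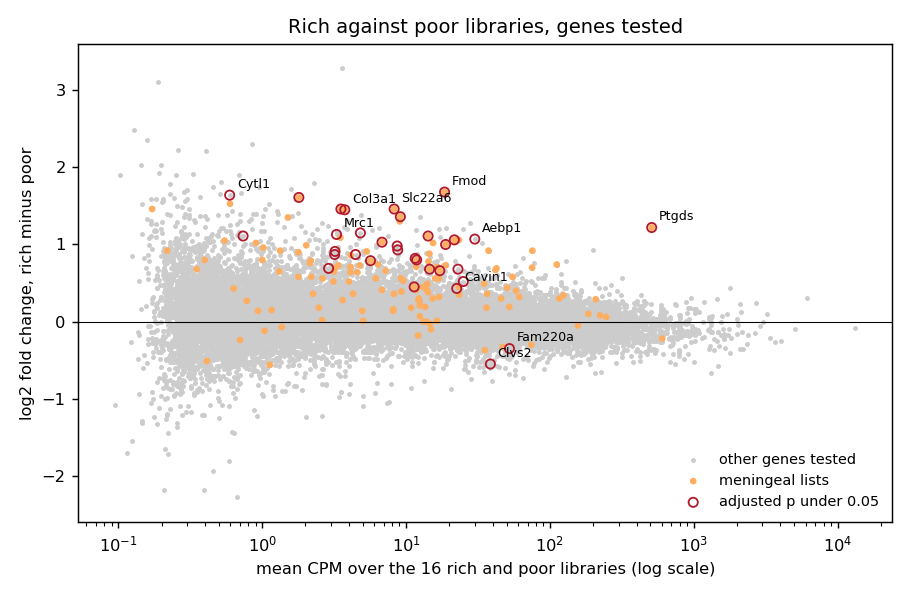
Log2 fold change, rich minus poor, against mean CPM over the 16 libraries (log scale) for the genes tested, with members of the 7 meningeal lists in orange and genes past an adjusted p of 0.05 ringed. The ringed genes are 31 above 0 and 2 below it, Fam220a and Clvs2, and Ptgds is the most abundant of the 31.

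The matrix came first. Type III collagen, encoded by Col3a1 (chr1:45311538-45349706, plus strand), forms fibrils with type I collagen in soft connective tissue. Col3a1 stood at 2.85 to 8.41 CPM in the rich libraries, with a median of 4.97, and at 0.703 to 4.06 CPM in the poor ones, with a median of 2.04. The ranges overlapped, since both rich ICI libraries, control replicate 5 and melanoma replicate 3 lay below the poor melanoma plus ICI replicate 5, yet rich libraries were higher in every group, by 1.17 to 1.87. The fitted log2 difference was 1.45 ± 0.20 (SE, 8 against 8, adjusted p = 0.0174 by edgeR), and 1.40 without the 2 libraries that stood apart. The adjusted p of 0.0174 was the smallest of the whole comparison and was shared by 20 genes.

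Col1a1, the other chain of type I collagen, stood at 12.3 to 27.4 CPM in rich libraries, with a median of 16.5, and at 5.12 to 16.5 CPM in poor ones, with a median of 7.96. Its log2 difference was 1.11 ± 0.17 (SE, adjusted p = 0.0174 by edgeR). Of the 15 listed collagens of meningeal fibroblasts, these 2 rose and the others did not pass, although all 15 had a log2 difference above 0, with a median of 0.58. Without the 2 libraries that stood apart the median was 0.37. Over all genes tested, 0.16% rose and 10036 of 19331 were above 0. The more abundant Col6a1 and Col6a2, chains of the microfibrillar type VI collagen, differed by 0.92 ± 0.47 and 1.05 ± 0.35 (SE) and did not pass, with adjusted p of 0.355 and 0.212 by edgeR.

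Fmod, which encodes the collagen-binding proteoglycan fibromodulin, had the largest rise past the threshold. Its level was 10.4 to 45.7 CPM in rich libraries, with a median of 26.2, and 3.15 to 22.2 CPM in poor ones, with a median of 7.90. The log2 difference was 1.68 ± 0.26 (SE, adjusted p = 0.0174 by edgeR). Fmod was lowest in poor ICI libraries and highest in the rich control replicate 1, and the classes overlapped because the poor melanoma replicate 4 and both poor melanoma plus ICI libraries, up to 22.2 CPM, lay within the rich range.

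Of the 30 listed matrix proteins and modifiers, 7 rose, 0 fell, and 29 had a log2 difference above 0, beside 0.16%, 0.0103% and 10036 of 19331 for all genes tested. The list's median was 0.66, and 0.55 without the 2 libraries that stood apart, beside 0.01 for all genes tested. Besides Fmod, the risers were the small proteoglycans Bgn, at 0.68 ± 0.10 (SE), and Ogn, at 1.03 ± 0.16, and 4 genes of elastic tissue or calcification control. Those 4 were elastin itself (Eln, 0.66 ± 0.12), Fbln5, whose protein assembles elastic fibres (0.79 ± 0.12), Efemp1, a fibulin (0.45 ± 0.08), and Mgp, an inhibitor of calcification (0.80 ± 0.13). Bgn separated the classes less in size but closely in level, at 12.8 to 22.5 CPM in rich and 8.88 to 14.3 CPM in poor libraries. Genes on the opposite strand that overlap Ogn hold counts equal to 18.6% of its own, and whether the counting used strand is not given in the sources used here.

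The most abundant listed matrix gene, Sparc, did not pass, at 173 to 268 CPM in rich and 176 to 243 CPM in poor libraries. Sparc encodes a collagen-binding glycoprotein that brain endothelium and astrocytes also make. Fn1, which encodes fibronectin, differed by 0.70 ± 0.23 (SE) with an adjusted p of 0.206 by edgeR. Dcn, which encodes decorin and also marks part of field CA1, differed by 0.92 ± 0.43 (SE) with an adjusted p of 0.320 by edgeR.

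The boundary transporters followed. Slc13a3 (chr2:165405028-165473230, minus strand) encodes a sodium-coupled transporter of dicarboxylates such as succinate. It stood at 17.8 to 32.97 CPM in rich libraries, with a median of 24.9, and at 9.28 to 17.7 CPM in poor ones, with a median of 11.53. The 8 rich libraries all exceeded the 8 poor ones, across treatments, and the log2 difference was 1.00 ± 0.15 (SE, adjusted p = 0.0174 by edgeR). It was 0.97 without the 2 libraries that stood apart.

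Slc6a12 (chr6:121343076-121365775, plus strand) encodes the betaine and GABA transporter and lies 5342 bases from the ranking gene Slc6a13. Slc6a12 stood at 1.40 to 4.41 CPM in rich libraries, with a median of 2.42, and at 0.352 to 1.19 CPM in poor ones, with a median of 0.946, again with no overlap. Its log2 difference was 1.61 ± 0.26 (SE, adjusted p = 0.0174 by edgeR). Slc22a6, an organic anion transporter, stood at 6.02 to 18.7 CPM in rich and 2.07 to 8.57 CPM in poor libraries, a difference of 1.46 ± 0.22 (SE, same adjusted p). Slc6a20a, a proline transporter, differed by 1.06 ± 0.17 (SE, same adjusted p). It has the near-identical copy Slc6a20b, between which reads can be split, and opposite-strand neighbours hold counts equal to 18.1% of its own.

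These 4 were the risers among 15 listed transporters of fibroblasts and arachnoid, whose median log2 difference was 0.73 and stayed at 0.69 without the 2 libraries. All 15 were above 0, beside 10036 of 19331 for all genes tested, of which 0.16% rose. Slc7a11, the cystine and glutamate exchanger, lay at 37.0 to 63.5 CPM in rich and 20.1 to 43.3 CPM in poor libraries and missed the threshold at an adjusted p of 0.0550 by edgeR. The 2 most abundant members, which neurons also express, did not pass. Slc4a10, a bicarbonate transporter, differed by 0.06 ± 0.09 (SE) and Slc23a2, an ascorbate transporter, by 0.10 ± 0.10.

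Retinoic acid synthesis was represented by Aldh1a2 (chr9:71215789-71296243, plus strand), which encodes the retinaldehyde dehydrogenase of the meninges. It stood at 8.25 to 18.4 CPM in rich libraries, with a median of 11.8, and at 1.93 to 11.0 CPM in poor ones, with a median of 4.93. The poor ICI libraries had the lowest levels and the rich control replicate 1 the highest, and both poor melanoma plus ICI libraries lay within the rich range. The log2 difference was 1.36 ± 0.19 (SE, adjusted p = 0.0174 by edgeR), and 1.48 without the 2 libraries that stood apart. Aldh1a2 was the only one of 12 listed retinoid pathway genes to pass, beside 0.16% of all genes tested that rose. Of the 12, 10 were above 0, beside 10036 of 19331. The list's median was 0.24, and 0.21 without the 2 libraries. Of the members that did not pass, Cyp1b1 had the smallest p, at 0.71 ± 0.17 (SE, adjusted p = 0.1005 by edgeR). The 2 members below 0 were Rdh10, a retinol dehydrogenase, at -0.03 ± 0.09 (SE), and Aldh1a1, a second retinaldehyde dehydrogenase, at -0.37 ± 0.17.

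The sequence before the gene start was searched for motifs in Col3a1, Bgn, Slc13a3 and Aldh1a2, each the member of smallest p in its list. The windows of Bgn and Slc13a3 held 0 matches, with G and C shares of 64.4% and 67.6%. Those of Col3a1 and Aldh1a2, with 1 match each, are shown. Each is the 250 bases before the gene start in the RefSeq table of build GRCm38.p6, 5′ to 3′ on the plus strand, with a matched motif in capitals.
Col3a1, chr1:45311288-45311537: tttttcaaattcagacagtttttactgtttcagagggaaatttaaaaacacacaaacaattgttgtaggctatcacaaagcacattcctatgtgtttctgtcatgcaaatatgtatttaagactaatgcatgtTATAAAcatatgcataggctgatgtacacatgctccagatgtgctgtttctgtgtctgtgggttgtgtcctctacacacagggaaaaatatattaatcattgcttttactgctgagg
Aldh1a2, chr9:71215539-71215788: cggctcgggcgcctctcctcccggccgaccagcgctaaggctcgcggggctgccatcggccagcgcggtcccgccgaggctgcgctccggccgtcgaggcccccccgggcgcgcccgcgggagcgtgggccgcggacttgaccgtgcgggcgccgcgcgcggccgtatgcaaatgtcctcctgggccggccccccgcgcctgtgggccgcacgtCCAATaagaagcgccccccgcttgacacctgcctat

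The Col3a1 window has a G and C share of 35.2% and holds TATAAA 117 bases before the start. The Aldh1a2 window has a G and C share of 77.6% and holds CCAAT 36 bases before it. Both strands were searched for CCAAT, for TATAAA and for the forkhead core GTAAACA, each on its own so that overlapping matches would count for each. Of the 31 genes that rose, 23 have a window in the RefSeq table. CCAAT was in a window of 7 of these (30.4%), against 37.5% of the 27025 genes with a window, and TATAAA in 2 (8.7%), against 14.3%. GTAAACA was in 0 of the 23, against 3.54% of all genes. A match is a string in this window and was not tested as a binding site.

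Among secreted signals, Ptgds was the most abundant riser, on the scale of counts per length as well. Ptgds (chr2:25466709-25470046, minus strand) encodes prostaglandin D synthase, a major protein of cerebrospinal fluid. Its mean level was 313 RPKM, against 10.1 RPKM for Mgp, the next of the genes that rose. It stood at 447 to 955 CPM in rich libraries, with a median of 734, and at 128 to 557 CPM in poor ones, with a median of 302. Both poor ICI libraries, at 128 and 129 CPM, were lowest, and the poor melanoma plus ICI libraries, at 532 and 557 CPM, overlapped the rich range. The log2 difference was 1.22 ± 0.20 (SE, adjusted p = 0.0174 by edgeR).

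Ptgds and Ogn were the 2 of 23 listed secreted signals to rise, and the list's median was 0.40, or 0.43 without the 2 libraries. Of the 23, 19 were above 0, beside 10036 of 19331 for all genes tested, of which 0.16% rose. The bone morphogenetic protein genes Bmp7 and Bmp4 differed by 1.02 ± 0.21 and 0.70 ± 0.16 (SE), with adjusted p of 0.0635 and 0.0990 by edgeR. The abundant member Igfbp5, which encodes an insulin-like growth factor binding protein, differed by 0.29 ± 0.15 (SE) and did not pass either.

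Fibroblast identity genes had a median of 0.52, and 0.49 without the 2 libraries. Of 21 members, Itih2 rose, which encodes a heavy chain of a hyaluronan-binding inhibitor. Itih2 stood at 3.39 to 7.90 CPM in rich and 0.940 to 3.21 CPM in poor libraries, with no overlap, a log2 difference of 1.46 ± 0.23 (SE, adjusted p = 0.0174 by edgeR). Of the 21, 17 were above 0 and 4 below, and at an unadjusted p under 0.05 by edgeR 12 were higher and 1 lower. Cped1 differed by 0.86 ± 0.19 (SE) and did not pass, with an adjusted p of 0.0846 by edgeR. Among those below 0, Cldn11, a tight junction gene of arachnoid and of oligodendrocytes, differed by -0.05 ± 0.22 (SE). Thy1, abundant in neurons, differed by -0.22 ± 0.08 (SE), and neither passed. No listed fibroblast transcription factor passed, with 15 of 18 above 0 and a median of 0.63, or 0.50 without the 2 libraries. Foxc1, a forkhead factor required for meningeal development, came closest, at 4.33 to 9.84 CPM in rich and 3.56 to 6.02 CPM in poor libraries (0.56 ± 0.11 SE, adjusted p = 0.0522 by edgeR). Counted once each, the 7 meningeal lists hold 132 tested genes, of which 118 were above 0, beside 10036 of all 19331 genes tested. At an unadjusted p under 0.05, 64 of the 132 were higher and 3 lower, beside 7.78% and 7.47% of all genes, and 16 rose past the adjusted threshold, beside 0.16%. The lists were chosen with earlier results of these data known.

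**Figure D3:**
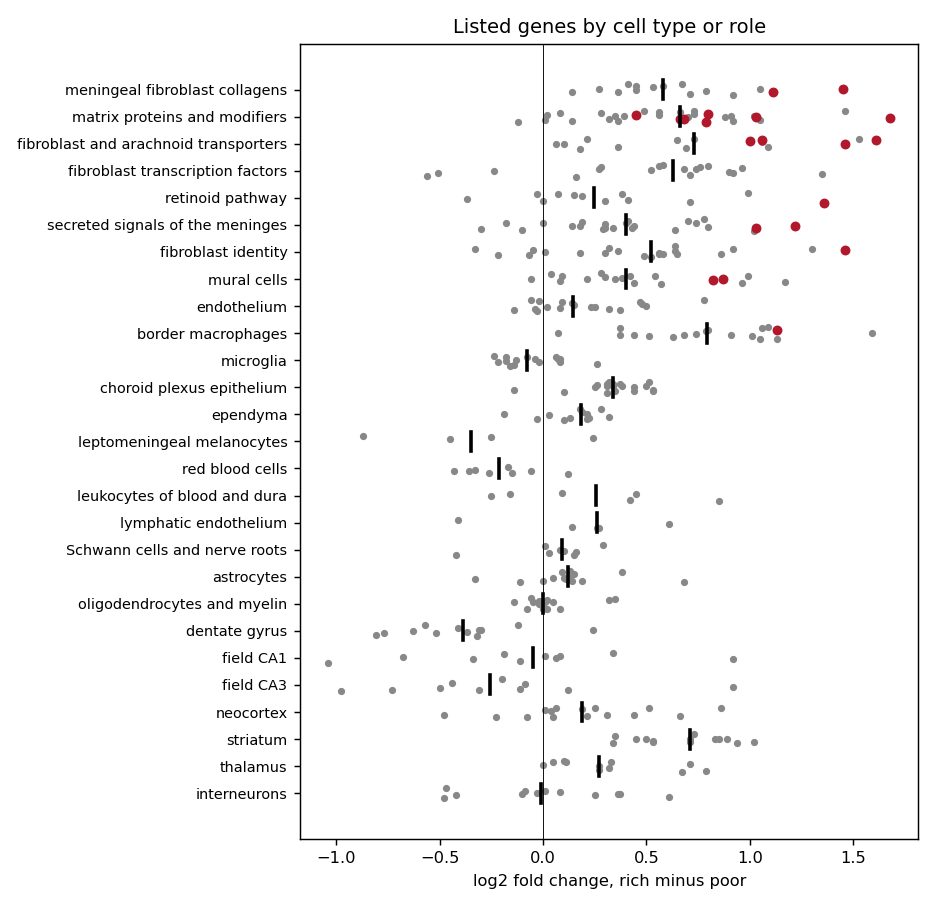
Log2 fold change, rich minus poor (horizontal axis), of the tested members of 27 gene lists (rows), with the median as a bar and genes past an adjusted p of 0.05 in red. Members of the first 7 rows, the meningeal lists, lie mostly above 0, as do those of 13 other lists, from 9 of 15 for oligodendrocytes to 14 of 14 for striatum, while microglia, melanocytes, red blood cells, dentate gyrus and field CA3 lie mostly below 0.

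The remaining risers lay partly in other cell types and partly in no list. Mrc1, the mannose receptor of macrophages at brain borders, stood at 2.76 to 6.64 CPM in rich libraries, with a median of 4.37, and at 0.967 to 3.58 CPM in poor ones, with a median of 2.29. It rose by 1.13 ± 0.20 (SE, adjusted p = 0.0365 by edgeR). It was the 1 of 18 tested border macrophage genes to pass. All 18 were above 0, with a median of 0.79, or 0.72 without the 2 libraries that stood apart, and 14 were higher at an unadjusted p under 0.05. Over all genes tested, 10036 of 19331 were above 0, 7.78% were higher at that unadjusted p and 0.16% passed. Their summed level was 77.4 to 125 CPM in rich and 50.6 to 89.3 CPM in poor libraries. The microglia list had a median of -0.08, or -0.02 without the 2 libraries, with 0 of 15 past the threshold. The difference between these lists was not tested.

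Of 18 mural cell genes, 2 rose and 17 were above 0, beside 0.16% and 10036 of 19331 for all genes, with a median of 0.40, or 0.38 without the 2 libraries. Acta2, the smooth muscle actin, stood at 8.83 to 20.7 CPM in rich and 5.74 to 12.9 CPM in poor libraries (0.82 ± 0.14 SE, adjusted p = 0.0355 by edgeR). Reads can be split between Acta2 and other actin genes. Anpep, a membrane aminopeptidase of pericytes that fibroblasts share, rose by 0.87 ± 0.16 (SE, adjusted p = 0.0497 by edgeR). None of the 18 listed endothelial genes passed, with 13 above 0 and a median of 0.15, or 0.17 without the 2 libraries.

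The 12 risers outside every list included more matrix genes. Aebp1, a secreted collagen-binding protein, stood at 32.4 to 49.6 CPM in rich libraries, with a median of 40.6, and at 10.8 to 31.2 CPM in poor ones, with a median of 17.6. The classes did not overlap, and the log2 difference was 1.07 ± 0.17 (SE, adjusted p = 0.0174 by edgeR). Olfml2a, an olfactomedin-like secreted protein, rose by 1.15 ± 0.17 (SE), Comp, a pentameric cartilage matrix protein, by 1.11 ± 0.19, and Crispld2, a secreted protein, by 0.87 ± 0.15. Cytl1, a cytokine-like secreted protein, rose by 1.64 ± 0.28 (SE) from a low level, 0.413 to 1.63 CPM in rich and 0.0470 to 0.554 CPM in poor libraries.

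Membrane proteins were among the rest. Gjb2, a gap junction connexin of leptomeningeal cells, stood at 8.11 to 15.9 CPM in rich and 3.06 to 9.73 CPM in poor libraries and rose by 0.98 ± 0.14 (SE). Colec12, a scavenger receptor, rose by 0.93 ± 0.15 (SE), and Lrrc32, which anchors latent TGF-beta, by 0.69 ± 0.12. Cavin1, needed for caveolae, had the smallest rise, 0.43 ± 0.07 (SE). Slc8a3, a sodium and calcium exchanger of neurons and muscle, rose by 0.52 ± 0.09 (SE), from 16.7 to 26.2 CPM in poor to 26.5 to 31.9 CPM in rich libraries. Gpr182, an endothelial receptor, rose by 0.91 ± 0.14 (SE), but genes on the opposite strand that overlap it hold counts equal to 438% of its own.

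The 2 falls were small. Fam220a stood at 40.7 to 55.1 CPM in rich and 55.4 to 65.9 CPM in poor libraries and fell by 0.35 on the log2 scale (SE 0.06, adjusted p = 0.0450 by edgeR). Clvs2, a neuronal protein of clathrin-coated vesicles, stood at 26.7 to 42.6 CPM in rich and 34.1 to 55.8 CPM in poor libraries and fell by 0.55 (SE 0.10, same adjusted p). Fam220a did not overlap between the classes, and Clvs2 did.

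**Figure D4:**
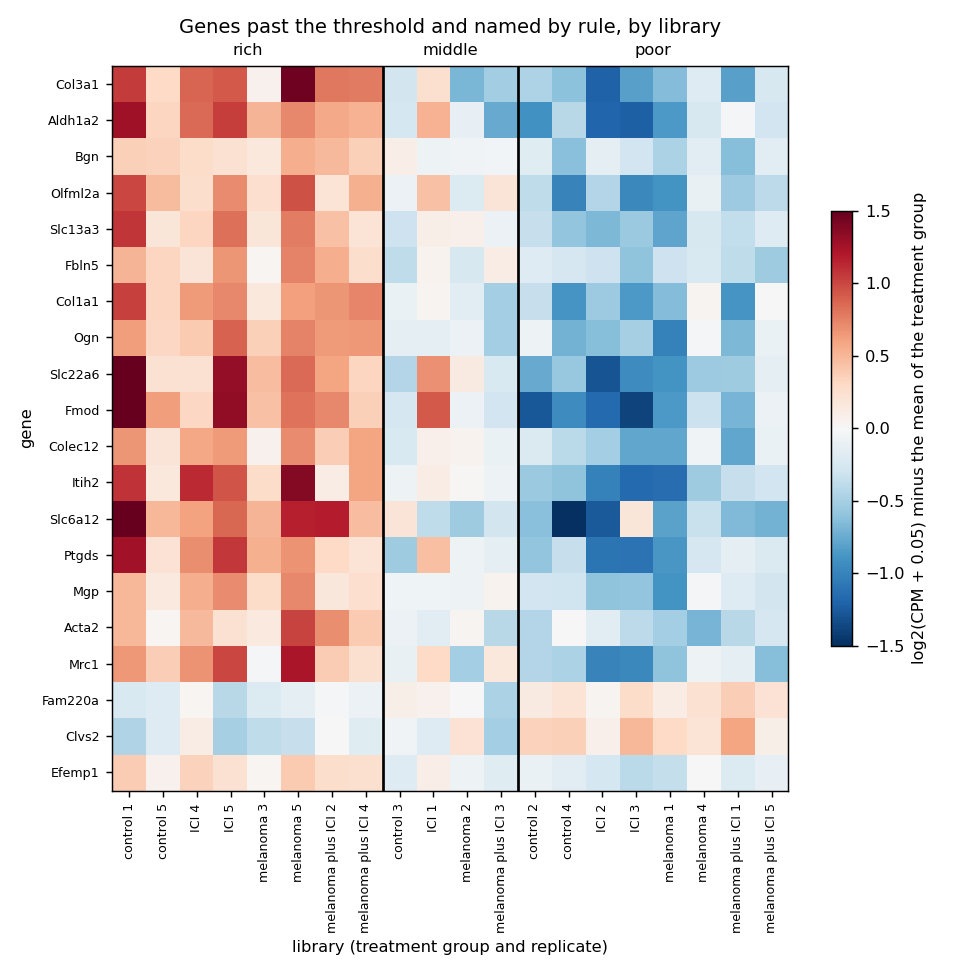
Level of 20 of the 33 genes past the threshold, those that the naming rule covers (rows), in the 20 libraries (columns), as log2(CPM + 0.05) minus the mean of the library's treatment group, with colours saturating at 1.5 and the rich, middle and poor libraries in that order. The risers are red in most rich and blue in most poor libraries, with paler and mixed colours in the 4 middle libraries.

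The 4 middle libraries, which the fit did not use, lay between the classes in the mean of each riser. On a scale where the poor mean is 0 and the rich mean 1, the middle mean of log2 CPM of the 31 risers ran from 0.18 to 0.81, with a median of 0.43. Of all genes tested, 39.8% had a position between 0 and 1. The position is divided by the difference between the classes, so that share is no baseline for genes called on a large difference. With the score itself as the covariate over all 20 libraries, 106 of 20419 genes rose (0.519%) and 3 fell (0.0147%) at an adjusted p under 0.05 by edgeR. Among them were 28 of the 31 risers, which is 26.4% of the 106, and both fits share 16 libraries. The risers Slc8a3, Comp and Lrrc32 and the falls Fam220a and Clvs2 did not pass for the score. Without the 2 libraries that stood apart, 27 of the 31 still passed in that fit. Foxc1 and Slc7a11, just over the threshold between the classes, passed for the score.

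The 10 genes whose group-centred log2 CPM was most like the group-centred score over the 20 libraries were Efemp1, Slc13a3, Tnfsf13, Colec12, Itih2, Ptgds, Aldh1a2, Mgp, Slc22a6 and Col3a1. Pearson's r ran from 0.969 for Efemp1 to 0.935 for Col3a1, as a description over libraries that share depth and scaling with the score. Tnfsf13, which encodes a cytokine of the tumour necrosis factor family, did not pass between the classes, at an adjusted p of 0.0554 by edgeR. Genes that overlap Tnfsf13 hold counts equal to 133% of its own on the same strand and 48.2% on the opposite one.

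Markers of neighbouring tissue differed between libraries too, and their part in the result was not tested beyond the covariates given here. The summed choroid plexus list, the epithelium that secretes cerebrospinal fluid, ran from 199 to 10760 CPM in rich and from 290 to 9535 CPM in poor libraries. Its median log2 difference was 0.34, and -0.18 without the 2 libraries that stood apart, and 0 of 20 genes passed. With that list's score as a covariate, all 31 risers passed.

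Striatal genes were above 0 in 14 of 14 cases, with a median of 0.71, or 0.89 without the 2 libraries, and 0 passed. Their sum ran from 230 to 1625 CPM in rich and 193 to 710 CPM in poor libraries. Thalamic genes were above 0 in 11 of 11 cases, with a median of 0.27, or 0.35 without the 2 libraries. Dentate gyrus genes were below 0 in 11 of 12 cases, with a median of -0.39, and field CA3 genes in 8 of 10, with a median of -0.25, and none of them passed. Without the 2 libraries these medians were -0.46 and -0.36. Of all 19331 genes tested, 10036 were above 0 and 9295 below, 0.16% rose and 0.0103% fell. The neocortex list had a median of 0.19, which became 0.39 without the 2 libraries, and with its score as a covariate all 31 risers passed. Red blood cell genes had a median of -0.21, which became 0.20 without the 2 libraries. Of the 27 lists, 0 had a member among the counted genes, tested or not, at 0 in all 20 libraries. High enough to be tested were 6 of the 20 leukocyte genes and 4 of the 10 melanocyte genes.

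The size of the difference was then compared between the treatment groups. By edgeR's test of the 3 interaction terms, 0 of 19331 genes differed at an adjusted p under 0.05, the smallest adjusted p was 1.00, and 313 genes (1.62%) had an unadjusted p under 0.05. The unadjusted count moved when single libraries were left out and was highest without control replicate 2. DESeq2 called 5 genes, Igsf1, Igfbpl1, Slc10a4, Zfhx3 and Isl1, all outside the meningeal lists. Isl1, a transcription factor of striatal and cholinergic neurons, was at 0 CPM in at least 1 library of each class, so its differences by group are not given.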

How the data were processed

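The authors deposited raw counts per gene for each library, in a table with gene coordinates and length per the file headers. STAR 2.5.2b and DESeq2 1.16.1 appear in the submitters' processing notes without a role, and the counter, strand setting and build are not given in the sources used here. Of 49671 identifiers, 45214 had the start and end of GENCODE M21 (GRCm38), which supplied symbols. Identifiers without a symbol held 0.0702% of counts.

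Classes, members and lists were chosen with earlier results of these data known. Ranking, RPKM and list sums used raw library totals, and other CPM values TMM-scaled ones (factors 0.9566 to 1.0452). The test was edgeR 4.0.16 in R 4.3.3 (robust quasi-likelihood, 11 residual degrees of freedom) with group as covariate, after filterByExpr at a minimum count of 10 and total of 15. It was checked on simulated data. SE is the log2 fold change over the square root of F. The 2 ranking genes were left out of the adjustment. Alternatives were size factors, DESeq2 1.42.0, limma 3.58.1 voom with quality weights, no filter, other rankings, covariates, a block on replicate number, and leaving out libraries or groups. Libraries of 1 group differed by a chi-square of 10.5 to 120 per gene over 40 pairs, so no pair within a group was a copy.

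Genes were named by rule: per meningeal list the 4 most abundant and 2 of smallest p, per other list 2 and 1, and, at a mean of at least 1 CPM, the 10 largest changes past the threshold in each direction, the 3 leading interaction genes and the 10 most like the score. Other named genes were chosen after their values were seen, and 1 gene past the threshold is not reported here.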

Additional observations from a re-analysis of the deposited data

Results flagged for a closer look

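In the levels of the 33 genes past the threshold, 66 sets of 8 libraries of 1 class were examined for a single library far from the rest, and 1 was found. Fam220a stood at 55.1 CPM in the rich ICI replicate 4, while the next of the 8 rich libraries was at 46.8 CPM. The gap was 0.577 of the whole range, above Dixon's critical value of 0.526 for 8 values, which chance exceeds in about 1 of 20 sets.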

How the results depend on the processing

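The 31 risers kept their direction in all 36 alternatives. They were called on these same libraries, so that count is a description and no further support. The share of tested genes that passed, 0.16% for rises and 0.0103% for falls, moved more. The shares were 1.5% and 1.18% with DESeq2 (261 and 206 genes), 0.171% and 0.107% with no filter (59 and 37), 0.279% and 0.0207% with limma voom and quality weights (54 and 4), and 0.279% and 0.0294% with a middle class (57 and 6). They were 0.46% and 0.0621% with the choroid plexus covariate (89 and 12) and 0.435% and 0.0776% with the neocortex covariate (84 and 15). Ranking by Col1a2 alone, which moved 5 libraries to another class, gave 0.0467% and 0% (9 and 0) with 3 of the 31 risers among the 9, and by Slc6a13 alone, which moved 2, gave 0.0983% and 0% (19 and 0), all 19 of them risers. For the score, 0.519% rose, and 0.515% over the 18 libraries without the 2 that stood apart. That alternative was chosen after seeing the data, as were filtering by class alone and the class comparison without these 2, which gave 0 and 0. Leaving out control, ICI, melanoma or melanoma plus ICI gave 0 and 0 each, with smallest adjusted p of 0.0839, 0.138, 0.104 and 0.0705 by edgeR. Size factors (29 and 2), the red blood cell covariate, ranking by TMM-scaled CPM and filtering by class alone (30 and 2) stayed near 31 and 2. Without single libraries, rises ran from 0% to 0.267% (0 to 54 genes), falls from 0% to 0.134% (0 to 27 genes) and interaction calls from 0 to 0. The interaction gave 5 calls with DESeq2 and 604 with no filter. The causes were not tested.

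With the replicate number as a block, 0 rises and 0 falls passed, with a smallest adjusted p of 0.0766 by edgeR, and all 31 risers stayed above 0. The labels give the replicate only as a number, and whether equal numbers pair the mice was not tested. Over 30 same-numbered pairs across groups, deviations from the group means correlated at -0.315 to 0.46, with a median of -0.0102. The median over differently numbered pairs was -0.011. Of the 30 pairs, 9 had a correlation over 0.1, and 7 of 20 libraries correlated best with their own number.

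Genes under 1 CPM in many libraries, such as Cytl1 and Comp, rest on few reads at this depth; the power of the interaction test was not measured.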
